A study of Mus musculus with 32 samples.

Results

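The histone deacetylase inhibitor trichostatin A (TSA) was compared with no inhibitor in proliferating C2C12 cells, a permanent line of mouse skeletal myoblasts kept in growth medium. The groups were defined by the array titles: 2 arrays of TSA-treated cells (replicates 1 and 2) and 2 arrays of control cells (replicates 1 and 2), both labelled 0 h and both in growth medium, so that no cell had yet been moved to differentiation medium. These 4 arrays belong to an arm of 20 arrays, which also holds 2 arrays of TSA-treated and 2 of control cells for each of 4, 12, 24 and 48 h of differentiation, and to a series of 32 arrays. Total RNA was hybridised to Affymetrix mouse arrays, and each value is the intensity of a probe set, a group of short probes for 1 transcript. The TSA dose, the length of exposure and any vehicle given to the control cells are not stated in the labels. C2C12 is 1 line, and the labels do not say that replicate arrays came from separate cultures. The p-values below therefore describe only the spread between arrays of the same treatment and time, taken over all 20 arrays. This spread may be technical.

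Histone acetyltransferases add acetyl groups to lysines of histones and other proteins, and histone deacetylases remove them. TSA occupies the catalytic pocket of the zinc-dependent enzymes, which leaves the sirtuins, whose chemistry needs NAD, largely untouched, and it is known for stopping the cell cycle of many cultured cells. In proliferating myoblasts the myogenic factors Myod1 and Myf5 are already made, while deacetylases bound at muscle genes help to keep the contractile programme silent until growth factors are withdrawn.

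The 4 arrays were alike in scale and quality. Their trimmed mean intensities lay between 800.6 and 800.7, their median intensities were 268.8 and 259.8 on the TSA arrays and 257.4 and 275.4 on the control arrays, and 21 to 21.4% of probe sets stood at or below 0. The ratio of the 3′ to the 5′ probe set of Gapdh, a sign of RNA degradation, was 0.865 and 0.775 with TSA and 0.844 and 0.9 in controls. Spearman's rank correlation was taken over the 7453 probe sets tested below. It was 0.954 between the TSA arrays, 0.968 between the control arrays and 0.886 to 0.897 between an array of each group. Arrays of the same group were more alike than arrays of different groups, and their small number limits the precision of every value below.

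Myoblast markers were present on each array. Of 7 myoblast markers 1 was higher with TSA, Myf5, and none was lower, and their summed intensity was 12674 and 12961 on the TSA arrays, against 9825 and 10942 on the control arrays. The adhesion molecule Cdh15, M-cadherin, stood at 2635 and 2842 with TSA, against 2610.2 and 2630.3 in controls. The muscle intermediate filament desmin (Des) read 1798 and 1863 with TSA, against 1482 and 1568 in controls. The groups did not overlap for desmin, which with 2 arrays a group is weak evidence, and its change was not called. The 6 markers of differentiated muscle summed to 1096 and 1171 with TSA, against 228.9 and 578.1 in controls. Both TSA sums were higher, but Myog alone made up the larger part of each. Of these 6 genes Myog rose and none fell, and leaving out either TSA replicate 1 or control replicate 1 gave Myog an adjusted p of 0.0561 or 0.083. The muscle creatine kinase Ckm read 23 and -66.1 with TSA, against -9.38 and 26.5 in controls. In RNA from whole cultures, fewer cells of a kind and less RNA per cell cannot be told apart, and this holds for each group of genes below.

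Of 7453 probe sets tested, 1336 (17.9%) differed between TSA-treated and control cells at an adjusted p under 0.05, 589 of them higher with TSA (7.9%) and 747 lower (10%). With 1 probe set a gene, 476 of 5636 genes were higher (8.45%) and 585 were lower (10.4%), and the median change over all genes was 0.003 on the log2 scale. Counts of the gene lists below are to be read beside the 8.45% and 10.4% of all genes. The lists were written by hand with earlier results of these data known, so their counts are a description and no independent test. A gene can stand in more than 1 list, so the lists are not separate results. Log2 changes are of intensity plus a pseudocount of 137.7, which shrinks the changes of dim genes. Most changes were moderate: among called genes the median size was 0.81 for the higher and 0.84 for the lower, 155 higher and 205 lower genes changed by at least 1 on the log2 scale, and 16 and 19 by at least 2. Among the brightest 20% of genes 15% were called higher and 17.2% lower, and among the dimmest 20% these were 3.99% and 5.14%. The number of calls depended on the arrays: with 1 left out it was 798 (TSA replicate 1), 913 (TSA replicate 2), 820 (control replicate 1) or 815 (control replicate 2). Where the count of a gene list below moved by over 1.5 times in this way, its counts without TSA replicate 1, TSA replicate 2, control replicate 1 and control replicate 2 are given in that order.

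**Figure D1:**
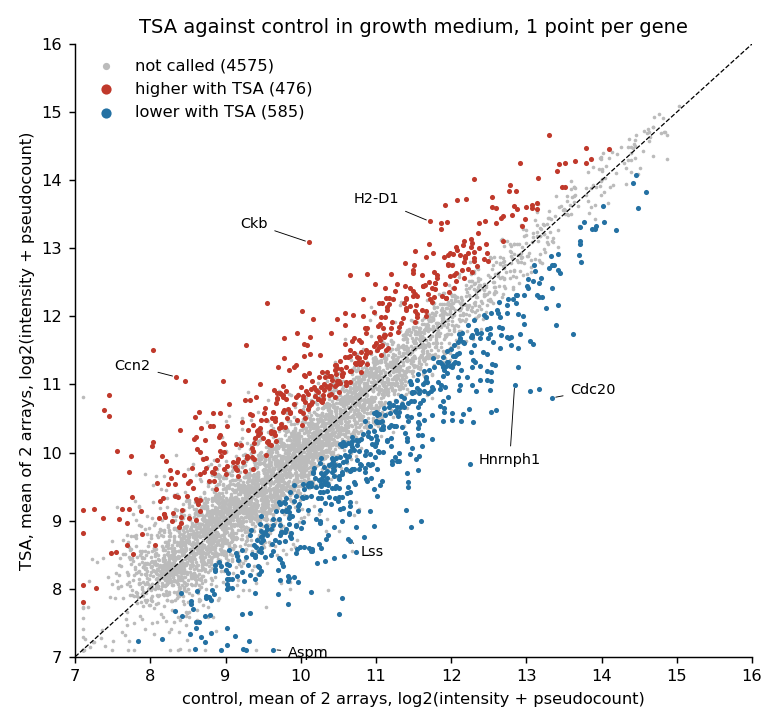
Each point is 1 gene; the vertical axis is the mean over the 2 TSA arrays and the horizontal axis the mean over the 2 control arrays, both as log2 of intensity plus the pseudocount, and the dashed line marks equal levels. The 476 genes higher with TSA (red) lie above the line and the 585 lower ones (blue) below it, with Aspm, below 0 on both TSA arrays, at the lower edge.

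The genes of mitosis were lower with TSA as a group. They were listed in 3 lists by role, and together they held 54 tested genes, of which 47 fell and none rose, where 10.4% of all genes fell. By limma at an unadjusted p under 0.05 the counts were 49 and 0. Promoters of 3 of them are shown because their members moved together; each is the 250 bases before the gene's start in RefSeq (GRCm38.p6), read 5′ to 3′ on the gene's own strand, with capitals marking the letters CCAAT, the box bound by NF-Y, and TTTGAA, the core of the cell cycle homology region known from mitotic genes, on either strand.
Cdc20, chr4:118437344-118437593, minus strand: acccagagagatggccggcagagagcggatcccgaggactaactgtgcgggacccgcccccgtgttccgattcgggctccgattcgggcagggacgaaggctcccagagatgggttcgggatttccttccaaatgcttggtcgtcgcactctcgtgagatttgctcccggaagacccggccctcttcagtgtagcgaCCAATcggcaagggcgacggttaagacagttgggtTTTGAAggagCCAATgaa
Ccnb2, chr9:70421555-70421804, minus strand: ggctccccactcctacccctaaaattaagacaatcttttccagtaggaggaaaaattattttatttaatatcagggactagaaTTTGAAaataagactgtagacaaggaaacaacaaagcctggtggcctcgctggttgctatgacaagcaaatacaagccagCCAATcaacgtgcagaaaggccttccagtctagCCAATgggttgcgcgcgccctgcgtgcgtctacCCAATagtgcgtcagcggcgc
Cdk1, chr10:69352913-69353162, minus strand: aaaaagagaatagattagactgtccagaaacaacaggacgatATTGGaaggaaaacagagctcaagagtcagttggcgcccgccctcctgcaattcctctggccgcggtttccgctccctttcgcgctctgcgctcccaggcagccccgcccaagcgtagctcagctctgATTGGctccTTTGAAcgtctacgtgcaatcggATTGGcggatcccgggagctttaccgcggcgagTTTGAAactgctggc
CCAAT occurred in 26 of the 41 promoters (63.4%) of mitosis genes with 1 start in RefSeq's table, against 37.4% of those of all tested genes with 1 start (3627 genes) and 34.7% of all 22862 such promoters of the table. TTTGAA occurred in 14 of the 41 (34.1%), against 11% and 16.7%, and both motifs in 12 (29.3%), against 4.63% and 5.82%. Neither motif contains the other, and the counts are a description of letters, not of bound sites.

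Cyclins and the proteins that trigger anaphase came down together. Of 18 tested, 15 fell and none rose, with a median log2 change of -1.31. Cdc20, the activator that lets the anaphase-promoting complex cut sister chromatids loose, read 1501 and 1810.3 on the TSA arrays and 10269 and 10236 on the control arrays, a log2 change of -2.54 ± 0.16 (adjusted p = 1.87e-06). The mitotic cyclin gene Ccnb2 read 1506 and 2101 with TSA, against 8760.5 and 7889.9 in controls (-2.14 ± 0.15, adjusted p = 2.46e-06). The higher TSA array stood at 17.7% of the lower control array for Cdc20 and at 26.6% for Ccnb2. Cdk1, the kinase that these cyclins switch on, read 1731 and 1846 with TSA, against 6419.5 and 5089.9 in controls (-1.6 ± 0.17, adjusted p = 3.80e-05). Spindle checkpoint genes, which hold anaphase back until chromosomes are attached, were among the lower ones. Bub1 stood at 449 and 594 with TSA, against 1868 and 1986 in controls (-1.65 ± 0.16), and Mad2l1 at 1322 and 1460.1, against 3853 and 4112 (-1.43 ± 0.12).

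Motors and microtubule-binding proteins of the spindle had the lowest median of the 3 groups, -1.76, with 17 of 18 lower. The kinesin Kif20a, which works in the closing furrow, read 660.3 and 895 with TSA, against 4794 and 4673 in controls (-2.42 ± 0.23, adjusted p = 1.61e-05). Aspm, a spindle pole protein, was below 0 on both TSA arrays (-89.9 and -66.4) and at 645 and 672 on the control arrays, so that no fold is given (adjusted p = 2.44e-06). The furrow scaffold anillin (Anln) read 1222 and 1613 with TSA, against 5265 and 6324 in controls (-1.94 ± 0.14). These genes serve the last steps of division, and their TSA and control arrays lay well apart. Stmn1, stathmin, which takes microtubules apart, was the brightest, at 3535 and 3074 with TSA, against 12920.3 and 12055 in controls (-1.88 ± 0.12). Dlgap5 and Tacc3, spindle proteins, fell by 1.86 and 1.74 on the log2 scale.

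Of 18 kinetochore, passenger and condensin genes 15 fell and none rose (median -1.36). Top2a, the topoisomerase that untangles chromosomes, read 481 and 701 with TSA, against 2496 and 2759.5 in controls (-1.94 ± 0.20, adjusted p = 3.61e-05). Mki67, whose protein Ki-67 marks cycling cells and coats mitotic chromosomes, read 627 and 831 with TSA, against 2687 and 3057 in controls (-1.80 ± 0.14). The kinase gene Aurka stood at 545 and 719 with TSA, against 1989 and 2075 in controls (-1.50 ± 0.13). The arrays of the groups did not overlap for any of these 3 genes, which with 2 arrays a group is weak evidence by itself. Smc4, a condensin subunit, fell by 1.43 and the passenger complex gene Cdca8 by 1.47 on the log2 scale.

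Some genes of the S phase were lower. Of 32 replication origin and fork genes 13 fell and none rose (7, 10, 5 and 7 with 1 array left out), with a median of -0.55. Rfc4 and Rfc5 encode subunits of the clamp loader: Rfc4 read 545 and 489 with TSA, against 1247 and 1386 in controls (-1.15 ± 0.19, adjusted p = 8.85e-04). Rfc5 read 386 and 106 with TSA, against 1469.6 and 1314 in controls (-2.10 ± 0.40, adjusted p = 0.00246), with the TSA arrays far apart from each other. Pola1, the catalytic subunit of the priming polymerase, stood at 529 and 575 with TSA, against 1163 and 1176 in controls (-0.92 ± 0.16). Of 13 genes of deoxynucleotide supply 4 fell (2, 1, 1 and 2 with 1 array left out) and 1 rose (1, 0, 0 and 0). Ctps, which makes CTP, was the lower member whose call held without each array, at 1664 and 1916 with TSA, against 3034 and 3089 in controls (-0.73 ± 0.11, adjusted p = 6.96e-04).

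G1 genes went both ways, where 8.45% of all genes rose and 10.4% fell. Among 21 G1 cyclins and inhibitors of cyclin-dependent kinases 4 rose (2, 3, 4 and 2 with 1 array left out) and 3 fell. Cdkn1c, the kinase inhibitor p57, read 576 and 406 with TSA, against 152 and 134 in controls (1.15 ± 0.21, adjusted p = 0.00222). Gadd45g, a growth arrest and stress gene, read 2733 and 2687 with TSA, against 1639 and 1658 in controls (0.67 ± 0.12, adjusted p = 0.00181). Cdkn1a, the inhibitor p21 and a textbook target of deacetylase inhibitors, read 1091 and 1644 with TSA, against 692 and 198 in controls, and its change of 1.49 ± 0.54 did not pass (adjusted p = 0.0801). Both TSA arrays were higher than both control arrays, but the control arrays differed 3.49-fold from each other. Gas1, a membrane protein first known from arrested fibroblasts, was lower, at 1411 and 1149 with TSA, against 3949 and 4813 in controls (-1.67 ± 0.18, adjusted p = 3.98e-05). The cyclin gene Ccnd1 changed by 0.19 ± 0.23 and did not pass (adjusted p = 0.669).

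The deacetylase list was too short to set its count apart from the shares of all genes. Of 7 tested deacetylases and sirtuins 1 rose and none fell (median 0.08), where 8.45% of all genes rose and 10.4% fell. The member that rose was Sirt2, an NAD-dependent tubulin and histone deacetylase, with 1909 and 1859 on the TSA arrays, against 663 and 813 on the control arrays (1.21 ± 0.20, adjusted p = 0.00107). Hdac1 changed by 0.22 ± 0.21 (adjusted p = 0.56) and Hdac2 by -0.15 ± 0.14 (adjusted p = 0.546). Hdac3 had the lowest value of the list, at 431 and 173 with TSA, against 680.1 and 1067 in controls, but the arrays of each group lay far apart and its change of -1.24 ± 0.81 did not pass (adjusted p = 0.355). Rbbp7, a histone-binding subunit that deacetylase complexes share, fell to 5909 and 6558 with TSA, against 10236 and 11834 in controls (-0.81 ± 0.13, adjusted p = 7.43e-04).

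Several histone and chromatin genes changed. H1f2, a linker histone, was higher, at 7442 and 5026 with TSA, against 1645 and 1312 in controls (1.96 ± 0.25, adjusted p = 1.86e-04). H2ax, the variant phosphorylated at DNA breaks, was lower, at 2210.2 and 2225 with TSA, against 5669 and 5489 in controls (-1.28 ± 0.12, adjusted p = 1.86e-05). The high mobility group genes Hmgb2 and Hmgb3, whose proteins bend DNA, were the 2 lower members of 5. Hmgb2 read 1816 and 1802 with TSA, against 10343 and 7905 in controls (-2.24 ± 0.19, adjusted p = 8.82e-06), and Hmgb3 2846 and 3256, against 8374 and 8357 (-1.42 ± 0.12). Of 16 genes of DNA methylation and heterochromatin 5 fell (3, 3, 3 and 4 with 1 array left out) and 1 rose. Dnmt1, which copies DNA methylation at replication, read 841 and 1092 with TSA, against 2312 and 2140.4 in controls (-1.11 ± 0.21, adjusted p = 0.00231). Trim28, a corepressor of zinc finger proteins, fell by 0.68 and Lmna, the lamin A gene, by 0.77 on the log2 scale. Ezh1, a histone H3 lysine 27 methyltransferase, was the member that rose, at 1199 and 1339 with TSA, against 612 and 738 in controls (0.79 ± 0.12, adjusted p = 6.46e-04).

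**Figure D2:**
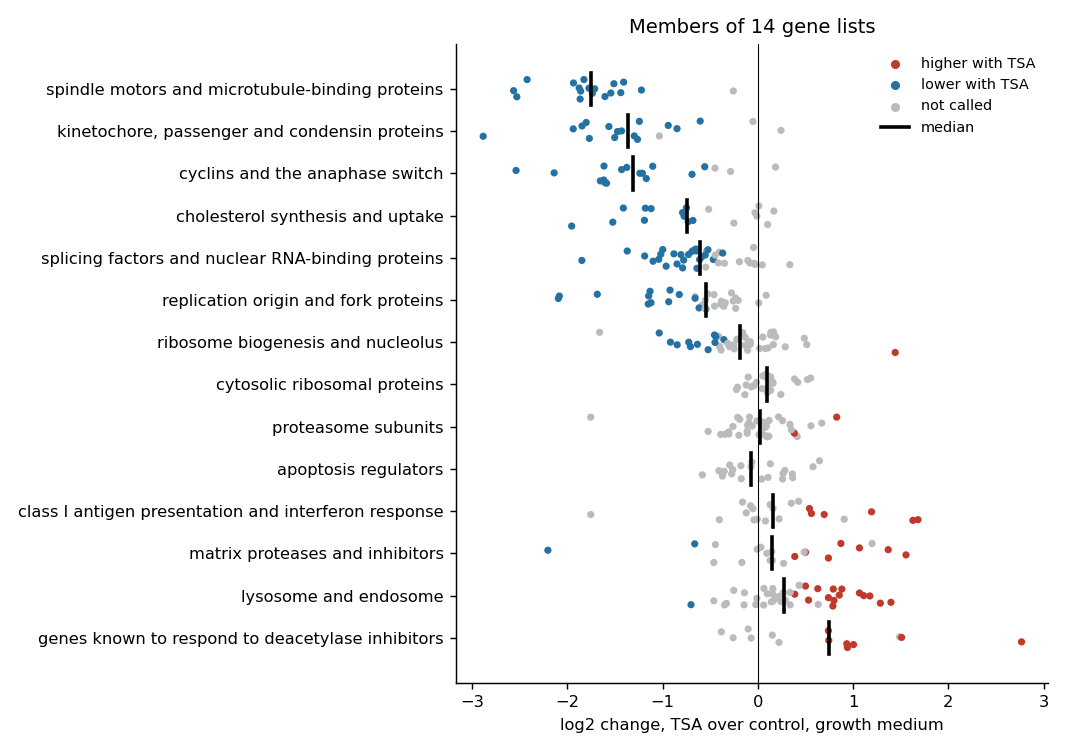
Each point is 1 tested gene of 14 gene lists, placed by its log2 change (TSA over control in growth medium); points are shifted up or down at random within a list so that they can be seen, and black bars are medians. The 3 mitosis lists lie almost wholly to the left of 0 with medians from -1.76 to -1.31, the lists of ribosomal proteins, proteasome subunits and apoptosis regulators have medians between -0.07 and 0.10, and the genes known to respond to deacetylase inhibitors have a median of 0.74. The lists were chosen with earlier results of these data known.

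Among 14 genes known from other cells to respond to deacetylase inhibitors 7 rose and none fell, with a median of 0.74, where 8.45% of all genes rose. The list was written with earlier results of these data known, so its count is no independent test of a known response. Ccn2 is also in the immediate early and glycoprotein lists, and Ctsl also in the protease and lysosome lists. Ccn2, a matricellular growth factor, read 2288 and 1876 with TSA, against 229 and 149 in controls (2.77 ± 0.21, adjusted p = 2.89e-06). Clu, the secreted chaperone clusterin, read 1886 and 1372 with TSA, against 499 and 455 in controls (1.51 ± 0.21, adjusted p = 3.01e-04). The actin-severing protein gelsolin (Gsn), a gene that these inhibitors are known to induce, stood at 8679.6 and 8680.4 with TSA, against 4557 and 4405 in controls (0.93 ± 0.12, adjusted p = 1.58e-04). The arrays of a group lay close together for gelsolin, whose mean TSA level was 1.94-fold its mean control level. Klf4, a transcription factor of skin and gut epithelium, read 1258 and 1325 with TSA, against 588 and 561 in controls (1.0 ± 0.19, adjusted p = 0.00212).

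Among called genes with all 4 arrays above the pseudocount, the largest change was that of Ckb, the brain isoform of creatine kinase, which buffers ATP. It read 8784 and 8366 with TSA, against 975 and 955 in controls (2.98 ± 0.13, adjusted p = 9.07e-08), an 8.88-fold difference of means. Car3, a carbonic anhydrase of slow muscle and fat, read 4154 and 4993 with TSA, against 447 and 816 in controls (2.65 ± 0.48, adjusted p = 0.00188). Uchl1, a ubiquitin hydrolase abundant in neurons, read 3574 and 2378 with TSA, against 425 and 546 in controls (2.30 ± 0.38, adjusted p = 9.25e-04). The lower TSA array was 8.58 times the higher control array for Ckb, 5.09 times for Car3 and 4.35 times for Uchl1. Ch25h, which makes 25-hydroxycholesterol, read 2250.2 and 1756 with TSA, against 312 and 419 in controls (2.09 ± 0.18, adjusted p = 9.09e-06). Dpp7, a lysosomal dipeptidase, read 3896 and 4492 with TSA, against 862 and 933 in controls (2.06 ± 0.15, adjusted p = 2.44e-06). F11r, a junctional adhesion molecule of epithelia and platelets, read 1393 and 1422 with TSA, against 310.2 and 220.1 in controls (1.95 ± 0.18). Npnt, the matrix ligand nephronectin, read 3486 and 3150.3 with TSA, against 919.9 and 783 in controls (1.81 ± 0.15).

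Some genes were bright with TSA while a control array was at or near 0, and for these the size of the change is not ranked. Chchd10, a mitochondrial protein, read 2981 and 2548 with TSA, against 359 and -9.14 in controls (adjusted p = 4.74e-04). Pfn2, a profilin that binds actin monomers, read 1532 and 1339.6 with TSA, against 64.8 and -22.6 in controls (adjusted p = 1.87e-06). Sprr1a, a protein of the cornified envelope of keratinocytes, read 1893 and 1523 with TSA, against 84.1 and -76.1 in controls (adjusted p = 4.88e-04). Pfn2 and Sprr1a were thus near the bottom of the scale on both control arrays, while the control arrays of Chchd10 lay far apart. All 3 were clearly higher on both TSA arrays. Cd34, a surface sialomucin of quiescent satellite cells and blood progenitors, read 982 and 823 with TSA, against 87.2 and 18.8 in controls (adjusted p = 2.27e-04).

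**Figure D3:**
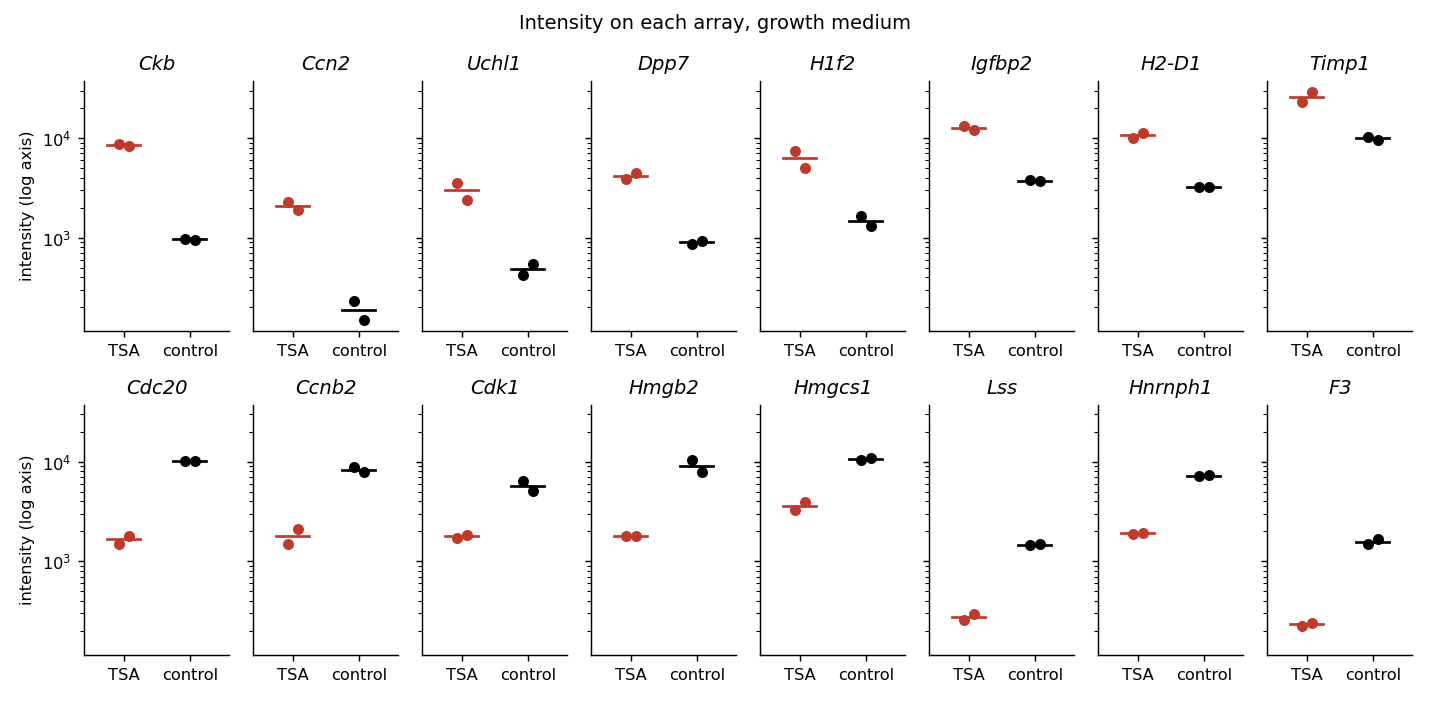
Intensity (log axis) of 16 genes on each array, TSA left and control right in each panel, with a line at the mean of the 2 arrays of a group. In the upper row, from Ckb to Timp1, both TSA arrays lie above both control arrays, and in the lower row, from Cdc20 to F3, both lie below.

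The muscle regulators did not move as a block, where 8.45% of all genes rose and 10.4% fell. Of 12 myogenic factors and cofactors 3 rose (1, 3, 1 and 2 with 1 array left out) and 2 fell (2, 1, 1 and 1). Myf5, which commits cells to the muscle lineage, read 3112 and 3004 with TSA, against 1268 and 1763 in controls (0.97 ± 0.18, adjusted p = 0.00188). Myod1, its partner in commitment, read 2173 and 2168 with TSA, against 1808 and 1934 in controls, and its change of 0.20 ± 0.11 did not pass (adjusted p = 0.24). The groups did not overlap for either gene, but with 2 arrays a group this is weak evidence, and Myod1 was not called. Myog, the factor that starts terminal differentiation, read 808 and 609 with TSA, against -40.8 and 183 in controls (adjusted p = 0.00616), but no longer passed when TSA replicate 1 (adjusted p = 0.0561) or control replicate 1 (0.083) was left out. Tcf12, a partner of the myogenic factors, was lower, at 1619 and 1871 with TSA, against 2829 and 2976 in controls (-0.69 ± 0.12, adjusted p = 0.00145). Of 15 repressors of muscle genes 3 rose (2, 1, 2 and 2 with 1 array left out) and none fell. Bhlhe40, a repressor of the basic helix-loop-helix family, read 4059.9 and 4002 with TSA, against 1529.8 and 1518 in controls (1.33 ± 0.15, adjusted p = 8.32e-05).

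The contractile programme was not raised as a group in growth medium, where 8.45% of all genes rose and 10.4% fell. Of 29 sarcomere genes 2 rose (3, 1, 1 and 2 with 1 array left out) and 2 fell (2, 1, 1 and 2), the median was 0.00, and 6 of the 35 on the array were at or below 0 on all 4 arrays. Tnnt1, the slow troponin T, read 24.1 and -56.7 with TSA, against 321 and 251 in controls (adjusted p = 1.07e-04), so that it was lower. Acta1, skeletal actin, read 117 and 204 with TSA, against 9.38 and 113 in controls, and did not pass (adjusted p = 0.144). Among adhesion and fusion molecules Ncam1, which is turned up in differentiating myoblasts, read 7814 and 7849.6 with TSA, against 2851 and 2719 in controls (1.45 ± 0.13, adjusted p = 8.91e-06). The tetraspanin gene Cd81 read 7469 and 7623 with TSA, against 4474 and 4137 in controls (0.79 ± 0.15). Vcam1, an adhesion molecule of myoblasts and endothelium, was lower, at 708 and 748 with TSA, against 1889 and 1979 in controls (-1.26 ± 0.13, adjusted p = 2.83e-05). Rapsn, which clusters acetylcholine receptors, was lower as well, at 1498 and 1323 with TSA, against 3747 and 3647 in controls (-1.31 ± 0.17).

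Of 26 genes of the follistatin, myostatin and TGF-beta family 3 rose and 2 fell (1, 2, 1 and 0 with 1 array left out). Across all genes 8.45% rose and 10.4% fell. Fst encodes follistatin, which binds myostatin and activins. It read 443 and 432 with TSA, against 52.7 and 67.1 in controls (1.54 ± 0.19, adjusted p = 1.31e-04). Mstn, the gene of myostatin itself, changed by 0.50 ± 0.34 and did not pass (adjusted p = 0.375). The ligand gene Tgfb3 read 2467 and 2478 with TSA, against 1383 and 1281 in controls (0.83 ± 0.13, adjusted p = 8.71e-04). Of 11 genes of the insulin-like growth factor axis 2 rose, both binding proteins, and none fell. Igfbp2 was among the brighter genes of the arrays, at 13157 and 12132 with TSA, against 3762 and 3701 in controls (1.72 ± 0.12, adjusted p = 2.27e-06). Igfbp3 was below 0 on both control arrays (351 and 280.2 with TSA, against -67.9 and -87.7 in controls, adjusted p = 0.00235), so that no fold is given.

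Of 20 other growth factors and receptors 3 rose (1, 1, 1 and 2 with 1 array left out) and 5 fell (3, 3, 3 and 2). Pdgfrb, a receptor for platelet-derived growth factor, read 254 and 225 with TSA, against 948 and 1019 in controls (-1.57 ± 0.24, adjusted p = 6.77e-04). Fgfr1, the main fibroblast growth factor receptor of myoblasts, read 1055 and 900.5 with TSA, against 1849.7 and 1839 in controls (-0.83 ± 0.13, adjusted p = 7.10e-04). Il1r1, the interleukin-1 receptor, read 460.2 and 566 with TSA, against 1398 and 1333 in controls (-1.21 ± 0.18). For these 3 receptors the TSA arrays stood below the control arrays. The list counts of growth factors, cytokines and immediate early genes stand beside 8.45% of all genes higher and 10.4% lower. Of 14 chemokines, cytokines and related genes, receptors and the adhesion molecule Vcam1 included, 3 rose and 3 fell. Vcam1 is also in the adhesion list, and Csf1 also in the list of growth factors. Csf1, the macrophage growth factor, read 10582 and 10797 with TSA, against 5450.3 and 5428 in controls (0.96 ± 0.12, adjusted p = 1.19e-04). Cx3cl1, fractalkine, read 998 and 1117 with TSA, against 297 and 209.9 in controls (1.62 ± 0.16, adjusted p = 2.57e-05). Ccl2, which attracts monocytes, read 1204 and 1329 with TSA, against 378 and 549.7 in controls (1.24 ± 0.25, adjusted p = 0.00353). Of 25 immediate early genes 6 rose (5, 4, 4 and 6) and 1 fell (0 with any of the 4 arrays left out). Ier3, a survival gene of this group, read 4827 and 6422 with TSA, against 2279 and 2437 in controls (1.19 ± 0.19). The polo-like kinase gene Plk2, a p53 target, read 5997 and 6372 with TSA, against 2387 and 2068 in controls (1.42 ± 0.13, adjusted p = 1.27e-05), unlike the mitotic genes above.

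Cytoskeletal and matrix genes changed in both directions, where 8.45% of all genes rose and 10.4% fell. S100a13, a calcium-binding protein that helps export growth factors, was bright and higher, at 16221 and 16559.8 with TSA, against 4795 and 5034 in controls (1.71 ± 0.12, adjusted p = 2.44e-06). Nes, nestin, the intermediate filament of progenitor cells, read 14539 and 16518 with TSA, against 6831 and 6961 in controls (1.15 ± 0.12, adjusted p = 2.57e-05). Tagln, the smooth muscle protein SM22, read 7378 and 7642 with TSA, against 3892 and 3804 in controls (0.94 ± 0.20, adjusted p = 0.00563). These 3 were higher, while Tubb6 and Tagln2 were lower. Tubb6, a beta tubulin, read 7274 and 7719 with TSA, against 13728 and 12665 in controls (-0.80 ± 0.12), and Tagln2 6956 and 7018, against 14097 and 12713 (-0.92 ± 0.15). Of 34 matrix glycoproteins and proteoglycans 9 rose and 3 fell (1 with any of the 4 arrays left out). Agrn, agrin, which organises the neuromuscular synapse, read 2329 and 2264 with TSA, against 790.3 and 865 in controls (1.34 ± 0.11, adjusted p = 4.84e-06). Tnc, tenascin-C, read 4414 and 5196 with TSA, against 2151 and 2172 in controls (1.10 ± 0.14, adjusted p = 1.76e-04). The proteoglycan genes Vcan and Dcn rose by 1.16 ± 0.17 and 0.97 ± 0.20 on the log2 scale.

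Of 21 matrix proteases and inhibitors 7 rose (5, 4, 4 and 3 with 1 array left out) and 2 fell. Among the 7 are the cathepsin genes Ctsb, Ctsd, Ctsl and Ctsz, which are counted again in the lysosome list below. Timp1, an inhibitor of metalloproteinases, was among the brightest of the changed genes, at 23235 and 28750.1 with TSA, against 10197 and 9662 in controls (1.37 ± 0.16, adjusted p = 1.04e-04). The cysteine protease inhibitor Cst3, cystatin C, read 16644 and 16564 with TSA, against 9202 and 8826 in controls (0.87 ± 0.13). F3, tissue factor, which starts blood clotting, was lower, at 225 and 241 with TSA, against 1484 and 1668 in controls (-2.21 ± 0.20, adjusted p = 1.02e-05). Islr, a secreted leucine-rich repeat protein, fell to 1359 and 1542 with TSA, against 5736 and 6397 in controls (-1.97 ± 0.13, adjusted p = 1.95e-06).

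Enzymes of cholesterol synthesis were lower as a group. Of 18 tested genes 11 fell and none rose, with a median of -0.74. The promoter of Hmgcs1 is shown because it was the 1 of 12 cholesterol promoters with 1 start in which the sterol element searched, TCACNCCAC, was found, against 0.965% of those of all tested genes and 0.993% of the table; capitals mark it and CCAAT.
Hmgcs1, chr13:119690101-119690350, plus strand: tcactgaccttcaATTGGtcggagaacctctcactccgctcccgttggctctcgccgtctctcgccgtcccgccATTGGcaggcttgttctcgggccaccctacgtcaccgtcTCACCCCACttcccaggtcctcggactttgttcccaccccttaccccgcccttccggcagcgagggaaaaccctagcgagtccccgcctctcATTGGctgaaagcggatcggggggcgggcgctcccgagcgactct
CCAAT stood in all 12 of these promoters, against 37.4% of those of all tested genes, and GGGCGG, the box bound by Sp1, in all 12, against 61.2% of those of all tested genes and 32.4% of the table. Hmgcs1, the synthase that makes HMG-CoA, read 3305 and 3917 with TSA, against 10346 and 10875 in controls (-1.52 ± 0.16, adjusted p = 4.33e-05). Idi1, which isomerises the isoprenoid unit, read 1784 and 2258 with TSA, against 5736 and 5419 in controls (-1.41 ± 0.13, adjusted p = 1.30e-05). Lss, lanosterol synthase, read 259 and 296 with TSA, against 1445 and 1495 in controls (-1.96 ± 0.21, adjusted p = 4.52e-05). Steps early and late in the pathway were thus lower on both TSA arrays. Nsdhl and Fdft1 fell by 1.19 and 0.77 on the log2 scale. Of 12 genes of fatty acid synthesis 3 fell and none rose: Fasn, fatty acid synthase, read 2216 and 2511 with TSA, against 5909.5 and 6067 in controls (-1.29 ± 0.26, adjusted p = 0.00386). Elovl6, an elongase, fell by 1.55 and Acly, ATP citrate lyase, by 0.56 on the log2 scale.

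Isoforms of 1 glycolytic enzyme moved apart. Pfkl, the liver type of phosphofructokinase, read 980.2 and 1096 with TSA, against 3399 and 3203 in controls (-1.55 ± 0.17, adjusted p = 4.19e-05). Pfkp, the platelet type, read 1409 and 1336 with TSA, against 396 and 632 in controls (1.24 ± 0.20, adjusted p = 9.31e-04). The respiratory chain list had 6 higher (3, 4, 5 and 3 with 1 array left out) and 7 lower (2, 3, 1 and 2) of 40. Across all genes 8.45% were higher and 10.4% lower. Slc25a5, an ADP/ATP carrier of the inner mitochondrial membrane, was lower. It read 4755 and 3920.3 with TSA, against 11434 and 8139 in controls (-1.14 ± 0.18, adjusted p = 8.91e-04). Sat1, which breaks down polyamines, was higher, at 9442 and 10222 with TSA, against 3813 and 3402 in controls (1.41 ± 0.15, adjusted p = 4.52e-05). Srm, spermidine synthase, was lower, at 1212 and 1156 with TSA, against 2584 and 2331 in controls (-0.97 ± 0.15, adjusted p = 5.23e-04). Odc1, ornithine decarboxylase, the enzyme that starts polyamine synthesis, was chosen after its values were seen and was higher, at 2192 and 1784 with TSA, against 989 and 1005 in controls (0.90 ± 0.24, adjusted p = 0.0182). It did not pass without TSA replicate 1 (adjusted p = 0.135), control replicate 1 (0.0898) or control replicate 2 (0.082). The called synthesis enzymes thus moved in both directions. Ahcy, which clears the by-product of methylation reactions, fell to 2681 and 3279 with TSA, against 8685 and 8482 in controls (-1.49 ± 0.20). The glutathione transferase gene Gstm1 rose to 10507 and 10477 with TSA, against 5261 and 5035 in controls (1.01 ± 0.16).

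Splicing factors and other nuclear RNA-binding proteins were lower, where 10.4% of all genes fell. Of 39 tested 25 fell (16, 18, 17 and 16 with 1 array left out) and none rose, with a median of -0.61. Hnrnph1, an RNA-binding protein that steers exon choice, had the smallest adjusted p of the genes that fell and are named here, at 1881 and 1926 with TSA, against 7139.9 and 7287 in controls (-1.85 ± 0.11, adjusted p = 7.09e-07). Snrpa1, a protein of the U2 particle, read 464 and 431 with TSA, against 1332 and 1421 in controls (-1.37 ± 0.11, adjusted p = 4.84e-06). Hnrnpm read 3166 and 3209.7 with TSA, against 6975 and 6445 in controls (-1.04 ± 0.11, adjusted p = 3.28e-05). The higher TSA array stood at 27.0%, 34.8% and 49.8% of the lower control array for Hnrnph1, Snrpa1 and Hnrnpm. Of 21 nuclear transport genes 5 fell (2, 2, 3 and 2) and none rose, among them the exportin gene Cse1l (-1.04 ± 0.15) and Rcc1 (-1.03 ± 0.16), which loads Ran with GTP.

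Some ribosome assembly genes fell, where 10.4% of all genes fell and 8.45% rose. Of 40 genes of ribosome biogenesis 11 fell (8, 5, 6 and 6 with 1 array left out) and 1 rose, with a median of -0.19. Gnl3, nucleostemin, a nucleolar GTPase of dividing cells, read 950.1 and 841 with TSA, against 1964 and 1992 in controls (-1.04 ± 0.20, adjusted p = 0.00299). Tsr1, which matures the small subunit, read 864 and 933 with TSA, against 1574 and 1891 in controls (-0.85 ± 0.13). Nop10, a core protein of the pseudouridylation particles, was the member that rose, at 10399 and 10642 with TSA, against 4117 and 3480.3 in controls (1.44 ± 0.15, adjusted p = 4.03e-05). Of 24 cytosolic ribosomal protein genes none passed in either direction by limma, also at an unadjusted p under 0.05, and their median was 0.10. Of 36 translation factors and tRNA synthetases 7 fell (4, 5, 6 and 5) and 2 rose (0 with any of the 4 arrays left out). Eif4a1, the helicase of initiation, read 3577 and 3438 with TSA, against 6318 and 6432 in controls (-0.84 ± 0.13, adjusted p = 6.58e-04).

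Of 40 tested lysosome and endosome genes 15 rose (10, 12, 11 and 10 with 1 array left out), where 8.45% of all genes rose, 24 did not pass and 1 fell (0, 0, 1 and 0), with a median of 0.28. Grn, progranulin, which is processed in lysosomes, read 6804 and 7024 with TSA, against 2683 and 2403 in controls (1.40 ± 0.11, adjusted p = 3.23e-06). The autophagosome proteins Map1lc3b and Gabarapl2, of the Atg8 family, were both higher. Map1lc3b read 8045 and 7380.3 with TSA, against 3550.1 and 3131 in controls (1.18 ± 0.18, adjusted p = 6.23e-04). Gabarapl2 read 4725 and 4351 with TSA, against 2035 and 2016 in controls (1.11 ± 0.12, adjusted p = 4.86e-05). Atp6v0d1, a subunit of the proton pump, rose by 0.88 ± 0.12 and Lgmn, a lysosomal protease, by 0.79 ± 0.10 on the log2 scale. Of 36 proteasome genes 2 rose (1, 1, 2 and 1) and none fell. Of 22 apoptosis regulators none passed in either direction by limma, also at an unadjusted p under 0.05.

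Of 21 genes of class I antigen presentation and the interferon response 6 rose and none fell (median 0.16), where 8.45% of all genes rose. H2-D1, a class I heavy chain, read 10032 and 11273 with TSA, against 3191 and 3253 in controls (1.68 ± 0.11, adjusted p = 1.87e-06). H2-K1, the other classical heavy chain on the arrays, read 12743 and 13828 with TSA, against 4226 and 4179 in controls (1.63 ± 0.11, adjusted p = 2.44e-06). The 2 genes are alike in sequence, and their probe sets may share signal. B2m, the light chain that both need, read 11303 and 12796 with TSA, against 7538 and 7205 in controls (0.70 ± 0.12, adjusted p = 0.00136). Ly6e, an interferon-inducible membrane protein, read 6671 and 6247 with TSA, against 2748 and 2744 in controls (1.19 ± 0.14, adjusted p = 9.98e-05).

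Some genes listed as markers of other cell types were higher, and their counts stand against the 8.45% of all genes that rose. Sums in this paragraph are over all genes of a list on the array, tested or not, with values below 0 counted as 0. Of 20 tested neuronal genes 3 rose, Uchl1, Nefl and Gap43 (1, 3, 1 and 2 with 1 array left out), and none fell, with sums of 34825 and 32729.7 with TSA, against 28681 and 28637 in controls. Of the 57 neuronal genes on the array 11 were at or below 0 on all 4 arrays, among them Snap25 and Stx1a of the synapse. Of 14 tested erythroid genes 4 rose, Hba-a1, Car2, Uros and Urod (0, 2, 3 and 2) and none fell. The erythroid sums were 20836 and 20210.4 with TSA, against 16934 and 15810.3 in controls. Of the 22 erythroid genes on the array 3 were at or below 0 on all 4 arrays, among them the globin genes Hbb-b2 and Hbb-bh1. Of 15 liver and gut genes 3 rose, Car3, Cyp1b1 and Car2 (1, 2, 2 and 2) and none fell, with sums of 26307 and 26253 with TSA, against 14881 and 15325 in controls. Car3, a gene of slow muscle too, is part of these sums, and Car2 is also in the erythroid list. Of the 41 liver and gut genes on the array 10 were at or below 0 on all 4 arrays, among them Apoa1, Epcam and Vil1. Of 13 tested leukocyte genes 1 fell (0, 0, 1 and 0), with sums of 5767 and 6276 with TSA, against 5846 and 6689 in controls. Of the 33 leukocyte genes on the array 5 were at or below 0 on all 4 arrays, among them Ptprc, Cd3e and Itgam. None of 4 tested endothelial genes passed by limma, also at an unadjusted p under 0.05. Of the 19 endothelial genes on the array 5 were at or below 0 on all 4 arrays, among them Vwf and Nos3. The part of such cells in the results above was not tested.

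A gene can have several probe sets, and they did not all give the same call. Of 897 genes with more than 1 tested probe set 193 had probe sets that differed in call and none had probe sets called in opposite directions. Among the genes named here this holds for Rfc5, Tnnt1, Vcam1, Grn, Agrn, Ncam1, H2-K1 and Gstm1, whose values are those of the brightest probe set.

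The effect of TSA in growth medium was set against its effect at later times. Compared with the mean TSA effect at 4, 12, 24 and 48 h of differentiation, which uses other arrays, the effect at 0 h differed for 940 probe sets (12.6%), and with 1 probe set a gene for 313 genes towards higher at 0 h (5.55%) and 440 towards lower (7.81%). Without TSA replicate 1 the number of probe sets was 465, without TSA replicate 2 it was 582, and it was 506 and 499 without control replicates 1 and 2 of 0 h. Called the same way at 4 h were 240 of the higher and 189 of the lower genes, at 12 h 82 and 36, at 24 h 42 and 34, and at 48 h 89 and 61, while 69 and 130 were called the opposite way at 48 h.

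Mitosis genes were among those that differed. Cdc20 had a log2 change of -1.21 ± 0.16 at 4 h, 0.15 ± 0.16 at 12 h, 0.25 ± 0.16 at 24 h and 0.91 ± 0.16 at 48 h, and its 0 h effect differed from their mean by -2.56 ± 0.18 (adjusted p = 7.28e-06). Cdk1 had 0.09 ± 0.17, 0.01 ± 0.17, 0.00 ± 0.17 and 2.85 ± 0.17 at the same times, a difference of -2.34 ± 0.19 (adjusted p = 1.35e-05). Both were lower in growth medium and higher at 48 h with TSA. Of the 54 tested mitosis genes 47 differed towards lower at 0 h, and of 39 splicing genes 21 did. The median of the spindle list was -1.76 at 0 h, -0.71 at 4 h, 0.19 at 12 h, -0.14 at 24 h and 1.02 at 48 h, while that of all genes stayed near 0.

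The cholesterol list was lowest at 4 and 12 h. Its median was -0.74 at 0 h, -0.98 at 4 h, -0.92 at 12 h, -0.07 at 24 h and 0.72 at 48 h. For Hmgcs1 the change was -2.15 ± 0.16 at 4 h and 0.96 ± 0.16 at 48 h, and the 0 h effect differed from the later mean by -1.0 ± 0.18 (adjusted p = 0.00338). For some genes no difference between 0 h and later times was detected. F3 changed by -2.81 ± 0.20, -2.14 ± 0.20, -1.85 ± 0.20 and -1.37 ± 0.20 at 4, 12, 24 and 48 h, and its 0 h effect differed from their mean by -0.16 ± 0.22, with an adjusted p of 0.726. Npnt changed by 1.86 ± 0.15, 2.25 ± 0.15, 1.63 ± 0.15 and 1.59 ± 0.15, a difference of -0.03 ± 0.17 (adjusted p = 0.955). Nestin changed by 0.85 ± 0.12, 0.98 ± 0.12, 1.09 ± 0.12 and 1.03 ± 0.12, a difference of 0.16 ± 0.13 (adjusted p = 0.489). F3 was lower and the other 2 were higher with TSA at each time. Fst was higher again at 4 h (2.56 ± 0.19) and 48 h (4.48 ± 0.19), and did not pass at 12 h (0.67 ± 0.19) or 24 h (0.45 ± 0.19).

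**Figure D4:**
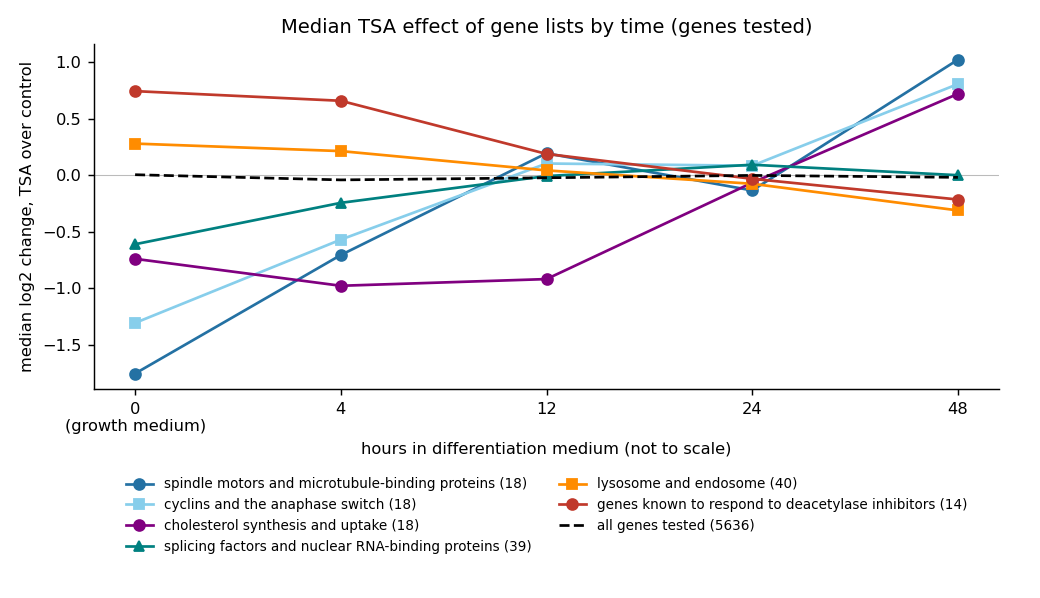
Median log2 change (TSA over control, vertical axis) of the tested genes of 6 lists at 0 h in growth medium and at 4, 12, 24 and 48 h in differentiation medium (horizontal axis, not to scale); the dashed line is the median of all 5636 genes. The mitosis lists start lowest, at -1.76 and -1.31, and end highest, at 1.02 and 0.81, and the cholesterol list turns from -0.92 at 12 h to 0.72 at 48 h.

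The genes that TSA changed in growth medium were set beside what control cells did later without it, between 4 and 48 h of differentiation. The arrays compared are other ones, but all 20 arrays set the spread of each probe set and the filter. Calls of the growth-medium comparison and of the later course are therefore not independent. In control cells 901 of 5636 genes rose over this interval (16%) and 1119 fell (19.9%). Of the 476 genes higher with TSA 191 rose (40.1% of them, and 21.2% of the 901) and 78 fell (16.4%, and 6.97% of the 1119). Of the 585 genes lower with TSA 310 fell (53% of them, and 27.7% of the 1119) and 61 rose (10.4%, and 6.77% of the 901). All 18 tested genes of the cyclin list fell in control cells, and 24 of the 40 lysosome genes rose. Single genes show both patterns. H1f2, higher with TSA, rose by 2.67 ± 0.25 in control cells between 4 and 48 h (adjusted p = 4.49e-06), and Ncam1 by 1.41 ± 0.13 (adjusted p = 2.56e-06). Ccn2 and Timp1, also higher with TSA, fell in control cells, with log2 changes of -2.45 ± 0.21 (adjusted p = 1.57e-06) and -1.6 ± 0.16 (adjusted p = 8.59e-06). Dnmt1, lower with TSA, changed by -3.55 ± 0.21 in control cells (adjusted p = 6.67e-08). Tnnt1, lower with TSA, changed by 4.37 ± 0.18 in control cells (adjusted p = 2.80e-09), the opposite direction.

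**Figure D5:**
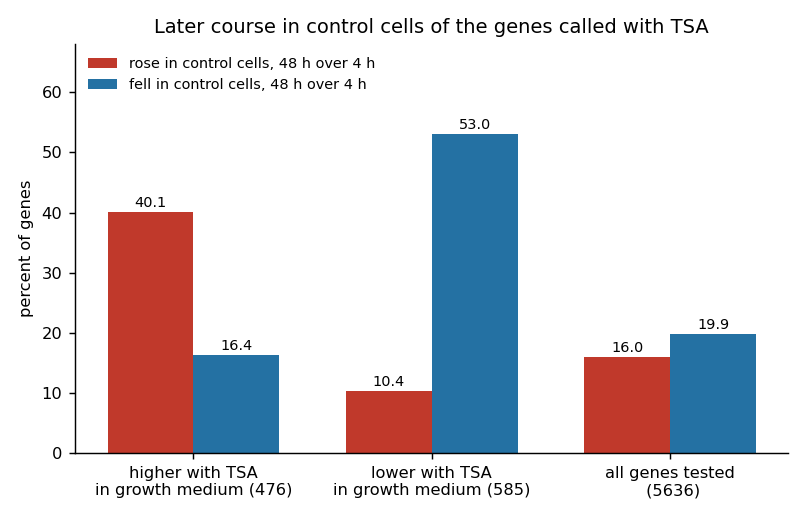
Percent of genes (vertical axis, from 0) that rose (red) or fell (blue) in control cells between 4 and 48 h of differentiation, for the 476 genes higher with TSA in growth medium, the 585 lower ones and all 5636 tested genes. Of the genes higher with TSA 40.1% rose and 16.4% fell, of the lower genes 10.4% rose and 53% fell, and of all genes 16% rose and 19.9% fell.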

How the data were processed

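The authors deposited 1 table of probe set intensities for 32 mouse Affymetrix arrays, and the 20 of the TSA arm were used. Which program computed the deposited intensities of these 20 is not given in the sources used. They are on a linear scale, extend below 0, as probe-difference measures do, and were scaled to a common trimmed mean on each array, as the values themselves show. The arms were scaled separately, and the 12 Sir2 and vector arrays were not used.

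Of 12422 probe sets that are no Affymetrix controls, 10833 had 1 gene symbol in the platform table, 396 had several and 1193 had none; only the first kind was named. Values below 0 were set to 0, a pseudocount of 137.7 (the 40th percentile of all values) was added, and log2 was taken. Probe sets with a mean over 20 arrays of at least 144.9 (the 40th percentile of means) were tested, 7453 in all. limma 3.58.1 in R 4.3.3 fitted 1 mean per treatment and time to all 20 arrays (lmFit and eBayes, 10 residual and 2.45 prior degrees of freedom), and p-values were adjusted by Benjamini-Hochberg over all tested probe sets within a contrast. "Called", "rose" and "fell" mean an adjusted p under 0.05. Contrasts were TSA minus control at 0 h and at each later time, the 0 h effect minus the mean of the later effects, and control cells at 48 h minus 4 h. Values after ± are standard errors of log2 changes.

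A gene was represented by its probe set of highest mean over the 20 arrays (5636 genes tested). Gene lists were written by hand, and members and lists were chosen with earlier results of these data known. Genes were named by rule: the largest changes, the smallest p of each list, and a fixed set of regulators; those lost when 1 array was left out were mostly passed over. Snap25, Hbb-b2 and the other markers at or below 0 were chosen after their values were seen. Promoters (250 bases before the start, GRCm38.p6) came from RefSeq's table, which matched 4542 of the 5636 genes, 3627 of them with 1 start. Alternatives were other pseudocounts, normalizations, filters, variance models, a replicate block and left-out arrays. Figures were drawn with matplotlib 3.10.9 under Python 3.11.15.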

Additional observations from a re-analysis of the deposited data

Results flagged for a closer look

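The TSA effect in growth medium differed from the mean TSA effect at 4 to 48 h of differentiation for 940 probe sets, and the genes named here are those of largest difference in each direction. The difference was tested itself, in the limma fit across all probe sets. Among genes higher relative to later times, Sprr2i, a keratinocyte envelope gene with near copies whose signal it may share, differed by 4.20 ± 0.73 on the log2 scale (adjusted p = 0.0024), Chchd10 by 3.55 ± 0.57 (0.00155) and Sprr1a by 2.60 ± 0.56 (0.00937). Myog differed by 2.49 ± 0.49 (0.00516) and the small GTPase gene Rhog by 1.99 ± 0.58 (0.0429).

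Sprr2i itself read 1054 and 1699.9 with TSA, against 83 and -30.8 in controls, in growth medium, and this call was lost without control replicate 2 (adjusted p = 0.0521). Chchd10 was higher with TSA at 0 h and at 4 h (3.72 ± 0.51 at 4 h) and lower at 24 h (-2.74 ± 0.51) and 48 h (-2.97 ± 0.51).

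The stress-response genes Ddit3, Trib3 and Lonp1 differed while not called at 0 h. Ddit3, a transcription factor of the endoplasmic reticulum stress response, differed by 1.97 ± 0.38 (0.0051), with 0.12 ± 0.34 at 0 h, -3.23 ± 0.34 at 24 h and -2.64 ± 0.34 at 48 h. Trib3, which Ddit3 is known to induce, differed by 2.07 ± 0.44 (0.00803), with 0.68 ± 0.39 at 0 h and -3.27 ± 0.39 at 24 h. Lonp1, a mitochondrial protease, differed by 2.11 ± 0.60 (0.0355), with 0.85 ± 0.53 at 0 h and -3.39 ± 0.53 at 24 h. Their difference thus came with lower levels under TSA late in differentiation.

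Among genes lower relative to later times, D17H6S56E-5 differed by -3.09 ± 0.21 (7.28e-06) and Hmgb2 by -2.67 ± 0.22 (1.35e-05). The others serve mitosis: Kif23 by -2.75 ± 0.57 (0.00753), Cdc20 by -2.56 ± 0.18 (7.28e-06), Kif20a by -2.52 ± 0.26 (7.25e-05), Aurkb by -2.39 ± 0.66 (0.0322), Cdk1 by -2.34 ± 0.19 (1.35e-05) and Racgap1 by -2.34 ± 0.61 (0.0253). D17H6S56E-5 read 329 and 424 with TSA, against 2738 and 3204 in controls, at 0 h.

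Some of these differences no longer passed with 1 array of 0 h left out. For Kif23 this was TSA replicate 2 (adjusted p = 0.0558), and for Sprr1a TSA replicate 1 (0.0585) or control replicate 2 (0.07). Aurkb did not pass without TSA replicate 1 (0.192), control replicate 1 (0.128) or control replicate 2 (0.0996), and Racgap1 not without TSA replicate 2 (0.15), control replicate 1 (0.102) or control replicate 2 (0.0898). Lonp1 and Rhog did not pass without any 1 of the 4 arrays: adjusted p was 0.127 and 0.227 without TSA replicate 1, 0.108 and 0.0543 without TSA replicate 2, 0.0544 and 0.145 without control replicate 1, and 0.192 and 0.131 without control replicate 2.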

How the results depend on the processing

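With 1 array left out, called probe sets at 0 h numbered 798 to 913 (1336 with all), 349 to 391 higher (589) and 428 to 522 lower (747). The difference from later times had 465 to 582 (940), 164 to 216 higher (383) and 301 to 366 lower (557). With a pseudocount of 68.8 or 275, quantile normalization, median centring, no filter, a filter at the 60th percentile, trended and robust variances, the title suffix b as a covariate, or probe sets above 0 on all 4 arrays, 1291 to 1460 passed at 0 h. Fitted to the 4 arrays of 0 h alone, 1138 passed. Deviations of same-numbered arrays from their group means correlated at -0.1 to 0.228 over the 5 times, with 2 arrays a group. Whether replicate numbers mark paired samples was not tested beyond these correlations. With the replicate block 1073 passed at 0 h and 629 for the difference, 241 of these higher. No called change of a named gene at 0 h, and no called value among the genes of largest difference from later times, changed sign; signs of other genes and of the course in control cells were not compared. Of 248 named genes called at 0 h 158 kept their call without each array and 151 under all 15 settings. Of 1890 alternative list counts 1583 stayed within 1.5 times. Control cells at 48 h against 4 h, with arrays left out as chosen after seeing the data, had 1931 to 2323 calls (2607 with all). Dim genes limit what can be seen: 3.99% of the dimmest 20% of genes were called higher and 5.14% lower.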

Other observations

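In growth medium 8.45% of all genes rose and 10.4% fell, and the counts of chaperone and stress genes are to be read beside these shares. Of 30 heat shock and cytosolic chaperone genes 4 rose (3, 2, 2 and 2 without TSA replicate 1, TSA replicate 2, control replicate 1 and control replicate 2) and 4 fell (1, 2, 3 and 0). Hspd1, the mitochondrial chaperonin, read 10127 and 10046 with TSA, against 16324 and 14571 in controls (-0.61 ± 0.11, adjusted p = 0.00212). Of 29 genes of oxidative stress and metallothioneins 4 rose and 2 fell (2, 1, 1 and 2), and Gsto1, a glutathione transferase, read 9373 and 9515 with TSA, against 5410.2 and 4854 in controls (0.86 ± 0.11, adjusted p = 1.21e-04). Of 10 genes of p53 and its targets 2 rose (1, 1, 2 and 1) and 1 fell (0, 1, 0 and 0).

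Among single genes outside these lists, Ufc1, the conjugating enzyme of the ubiquitin-like modifier Ufm1, read 268 and 162 with TSA, against 1357 and 1160.2 in controls (-2.0 ± 0.24, adjusted p = 1.04e-04). Serpinb1a, an inhibitor of neutrophil proteases, read 432 and 609 with TSA, against 93.7 and 62.8 in controls (1.6 ± 0.26, adjusted p = 9.09e-04). Of 11 tubulins 2 fell (1, 1, 1 and 3) and none rose. Of 36 solute carriers and ion transporters 4 rose (2, 2, 2 and 3) and 2 fell (1, 1, 2 and 1), among them the nucleoside transporter Slc29a1, which read 2112 and 2561 with TSA, against 5009.8 and 5448 in controls (-1.12 ± 0.17, adjusted p = 6.78e-04).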
